A study of Mus musculus with 18 samples.

Results

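The genes described here are 10 mouse genes with very large annotated spans, followed in embryonic stem cells after DNA damage, of 19935 genes measured by a probe that names 1 gene. Gtdc1, Cask, Gphn, Lpp and Arhgap42 were chosen because their levels were among those that fell most after ultraviolet light (UV), so their UV change is a description and had no test. Fhit, Wwox, Immp2l, Macrod2 and Dmd were chosen for their known length. Of the 10 genes, 9 were measured by 17 probes in all, with 3 probes for Lpp, 2 for Arhgap42, 6 for Macrod2 and 1 for each of the others. Immp2l, a subunit of the inner mitochondrial membrane peptidase, was named alone by no probe in the annotation used and was not analysed here.

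Messenger RNA was measured on 18 whole-transcript arrays, 12 of the R1E line of mouse embryonic stem cells and 6 of p53-/- embryonic stem cells of 129X1 x 129S1 background. R1E cells were mock treated, given 0.5 µM adriamycin (doxorubicin, an intercalating drug that poisons topoisomerase II) for 8 hours, or given 25 J/m² of UV and taken at 8 hours, with n = 4 arrays in each group. In p53-/- cells, which had no UV arm, untreated cultures were compared with cells kept in 0.5 µM adriamycin for 8 hours (n = 3 arrays in each group). All cells were grown in serum with leukemia inhibitory factor, and the labels give neither the genotype of R1E at other loci nor whether the p53-/- cells are 1 clone. Nor do they state that replicate arrays were separate cultures, and the p-values then reflect array-to-array spread that may be technical.

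Values are deposited log2 intensities, and the number of arrays limits their precision. Array medians ranged from 5.30 to 5.61. The standard error (SE) of a change had a median over genes of 0.063 in R1E and 0.140 in p53-/- cells. All 10 embryonic stem cell markers examined, Pou5f1, Sox2 and Nanog among them, lay above the median of all genes in every group. They moved with the treatments all the same. After UV 7 of the 10 were called lower (median change -0.28), against 21.2% of all genes. After adriamycin in R1E 9 were called lower (median -0.56), against 25.6% of all genes. The part of these markers in the changes of the long genes described next was not tested. The median change of all genes was 0.03 after UV and -0.02 after adriamycin in R1E on the log2 scale. With each array centred on its own median, UV changes moved by -0.08 and adriamycin changes by -0.13 in the median, and calls of a rise made up 35.3% of UV calls in place of 51.6% and 25.4% of adriamycin calls in place of 46.3%. In whole-culture RNA, fewer cells that express a gene and less of its RNA per cell cannot be told apart.

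UV joins neighbouring pyrimidines in DNA, and such lesions stop RNA polymerase II on the transcribed strand until transcription-coupled repair removes them. A long gene offers more bases at which an elongating polymerase can meet a lesion, and polymerases need hours to cross the largest genes. Several of the largest mammalian genes lie in common fragile sites, regions that break when replication is slowed.

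Gtdc1 encodes a glycosyltransferase-like protein and spans 363.3 kb on chromosome 2. Cask, a scaffold of the membrane-associated guanylate kinase family, spans 329.7 kb on the X chromosome. Gphn encodes gephyrin, which anchors glycine and GABA receptors at synapses and carries out the last steps of molybdenum cofactor synthesis in other tissues, and spans 467.4 kb on chromosome 12. Together with Lpp and Arhgap42, described next, these are the genes chosen by their UV fall. Lpp, a LIM-domain protein of focal adhesions, spans 599.2 kb on chromosome 16. Arhgap42, a GTPase-activating protein, spans 246.5 kb on chromosome 9.

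The genes chosen by length are larger still. Fhit, a hydrolase of diadenosine triphosphate whose human gene lies at a fragile site, spans 1612.0 kb on chromosome 14. Wwox, a WW-domain oxidoreductase whose human gene also lies at a fragile site, spans 913.1 kb on chromosome 8. Macrod2, which removes ADP-ribose from proteins, spans 1997.7 kb on chromosome 2. Dmd encodes dystrophin, the link between actin and the dystroglycan complex of muscle, and its 2390.4 kb on the X chromosome made it the largest of the 19853 genes with a span. Spans are the distances between the outermost ends annotated by RefSeq on GRCm38.p6, and the isoform used in these cells was not determined.

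The sequences at annotated transcription starts show how different the starts of these genes are. They are given for the genes chosen by UV fall that had a window, Gtdc1, Gphn, Lpp and Arhgap42, and for Fhit, which did not pass the test. Each window runs from 250 bases before to 50 bases after a start, is given 5′ to 3′ on the gene's strand and comes from RefSeq on GRCm38.p6. Capitals mark GC boxes, the letters GGGCGG read on either strand. For a gene with several windows, the one with the most CpG dinucleotides is shown. Gtdc1 is at chr2:44927187-44927486 on the minus strand, Gphn at chr12:78226405-78226704 on the plus strand, Lpp at chr16:24393100-24393399 on the plus strand, Arhgap42 at chr9:9238978-9239277 on the minus strand, and Fhit at chr14:11161986-11162285 on the minus strand.
Gtdc1: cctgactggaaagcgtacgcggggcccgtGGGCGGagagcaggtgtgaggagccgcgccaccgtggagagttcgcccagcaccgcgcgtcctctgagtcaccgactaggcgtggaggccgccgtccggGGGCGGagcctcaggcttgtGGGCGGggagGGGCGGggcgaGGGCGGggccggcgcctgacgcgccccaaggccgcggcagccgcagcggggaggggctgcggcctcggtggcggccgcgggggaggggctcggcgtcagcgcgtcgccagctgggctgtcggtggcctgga
Gphn: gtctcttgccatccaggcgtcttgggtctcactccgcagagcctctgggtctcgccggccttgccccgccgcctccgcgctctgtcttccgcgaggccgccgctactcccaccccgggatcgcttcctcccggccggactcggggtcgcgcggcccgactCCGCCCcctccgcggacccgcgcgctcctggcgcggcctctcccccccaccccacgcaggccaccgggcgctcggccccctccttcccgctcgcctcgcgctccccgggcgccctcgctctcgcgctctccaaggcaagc
Lpp: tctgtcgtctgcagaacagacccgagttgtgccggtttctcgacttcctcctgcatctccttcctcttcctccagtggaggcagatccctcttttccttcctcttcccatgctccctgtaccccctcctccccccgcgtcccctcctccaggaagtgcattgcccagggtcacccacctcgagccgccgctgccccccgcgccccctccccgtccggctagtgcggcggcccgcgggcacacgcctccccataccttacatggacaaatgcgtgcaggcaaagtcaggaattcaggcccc
Arhgap42: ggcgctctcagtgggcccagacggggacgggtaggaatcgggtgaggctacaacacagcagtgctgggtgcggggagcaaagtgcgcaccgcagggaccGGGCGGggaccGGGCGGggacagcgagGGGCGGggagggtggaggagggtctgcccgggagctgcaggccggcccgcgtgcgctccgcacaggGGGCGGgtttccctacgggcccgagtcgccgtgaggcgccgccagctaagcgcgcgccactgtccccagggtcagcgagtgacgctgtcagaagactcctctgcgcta
Fhit: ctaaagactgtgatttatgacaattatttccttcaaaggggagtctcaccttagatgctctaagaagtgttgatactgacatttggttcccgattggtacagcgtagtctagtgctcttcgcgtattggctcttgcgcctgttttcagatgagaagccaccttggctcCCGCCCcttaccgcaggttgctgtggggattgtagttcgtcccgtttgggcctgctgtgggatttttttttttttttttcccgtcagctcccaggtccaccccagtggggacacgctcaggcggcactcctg

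The Gtdc1 window held 5 GC boxes and 41 CpG dinucleotides, but the window at the outermost start of Gtdc1 held 0 and 14, and its remaining window held 0 and 0. The Arhgap42 window, the only one of that gene, held 4 GC boxes and 32 CpG dinucleotides. Gphn had 1 GC box and 42 CpG dinucleotides. The Lpp window had no match to the GC box and 19 CpG dinucleotides, and the Fhit window had 1 match and 12. None of these 5 windows held TATAAA on either strand. Dmd, not shown, had a window with 1 match to TATAAA, 0 GC boxes and 2 CpG dinucleotides and another with 0, 3 and 14. Over all 32851 windows of this length, 35.7% held a GC box and 13.6% held TATAAA and the median count of CpG dinucleotides was 7, a figure with no choice of the richest window. Of the 10 genes, 8 had a window in the table used.

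After UV the levels of the genes chosen by this fall were 1.54 to 1.74 below those in mock R1E cells on the log2 scale, a direction set by the choice. At their brightest probes the measured genes chosen by length were lower by 0.05 to 0.51, and not all of them passed the test. Gtdc1 read 7.56, 7.44, 7.49 and 7.33 on the mock arrays and 5.80, 5.56, 5.89 and 5.61 on the UV arrays. Its adriamycin arrays, at 6.64, 6.58, 6.69 and 6.77, lay between, and no group overlapped another. The change after UV was -1.74 ± 0.07 (SE, n = 4 against 4), a 3.35-fold lower level.

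Cask was the tightest of these genes, with mock arrays at 8.01, 7.92, 8.00 and 7.98 and UV arrays at 6.21, 6.32, 6.28 and 6.33. Adriamycin arrays read 7.29, 7.28, 7.33 and 7.22, again a separate band between the others. Cask fell to a level 3.23-fold lower after UV (log2 change -1.69 ± 0.05).

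Gphn read 7.06, 6.78, 6.89 and 6.71 in mock cells and 5.55, 5.11, 5.14 and 5.16 after UV, with 1 UV array above the other three. Its adriamycin arrays, at 6.25, 6.34, 6.15 and 6.30, also lay between the groups without overlap. The UV level was 3.08-fold lower (-1.62 ± 0.09). The same order without overlap, mock above adriamycin above UV, held for Gtdc1, Cask and Gphn, and also for Wwox, chosen by length.

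In Lpp the mock and adriamycin arrays were not separate. Its brightest probe read 7.40, 7.23, 7.30 and 6.84 in mock cells and 6.95, 6.99, 7.18 and 7.18 after adriamycin. After UV it read 5.92, 5.62, 5.58 and 5.32, below every other R1E array, a 2.99-fold lower level (-1.58 ± 0.12).

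Arhgap42 was low after both treatments. Its brighter probe read 7.22, 6.99, 7.03 and 7.04 in mock cells, 5.98, 5.69, 5.96 and 5.83 after adriamycin, and 5.43, 5.32, 5.60 and 5.76 after UV. The treated groups overlapped each other and neither reached the mock arrays. The UV level was 2.91-fold lower (-1.54 ± 0.09).

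**Figure D1:**
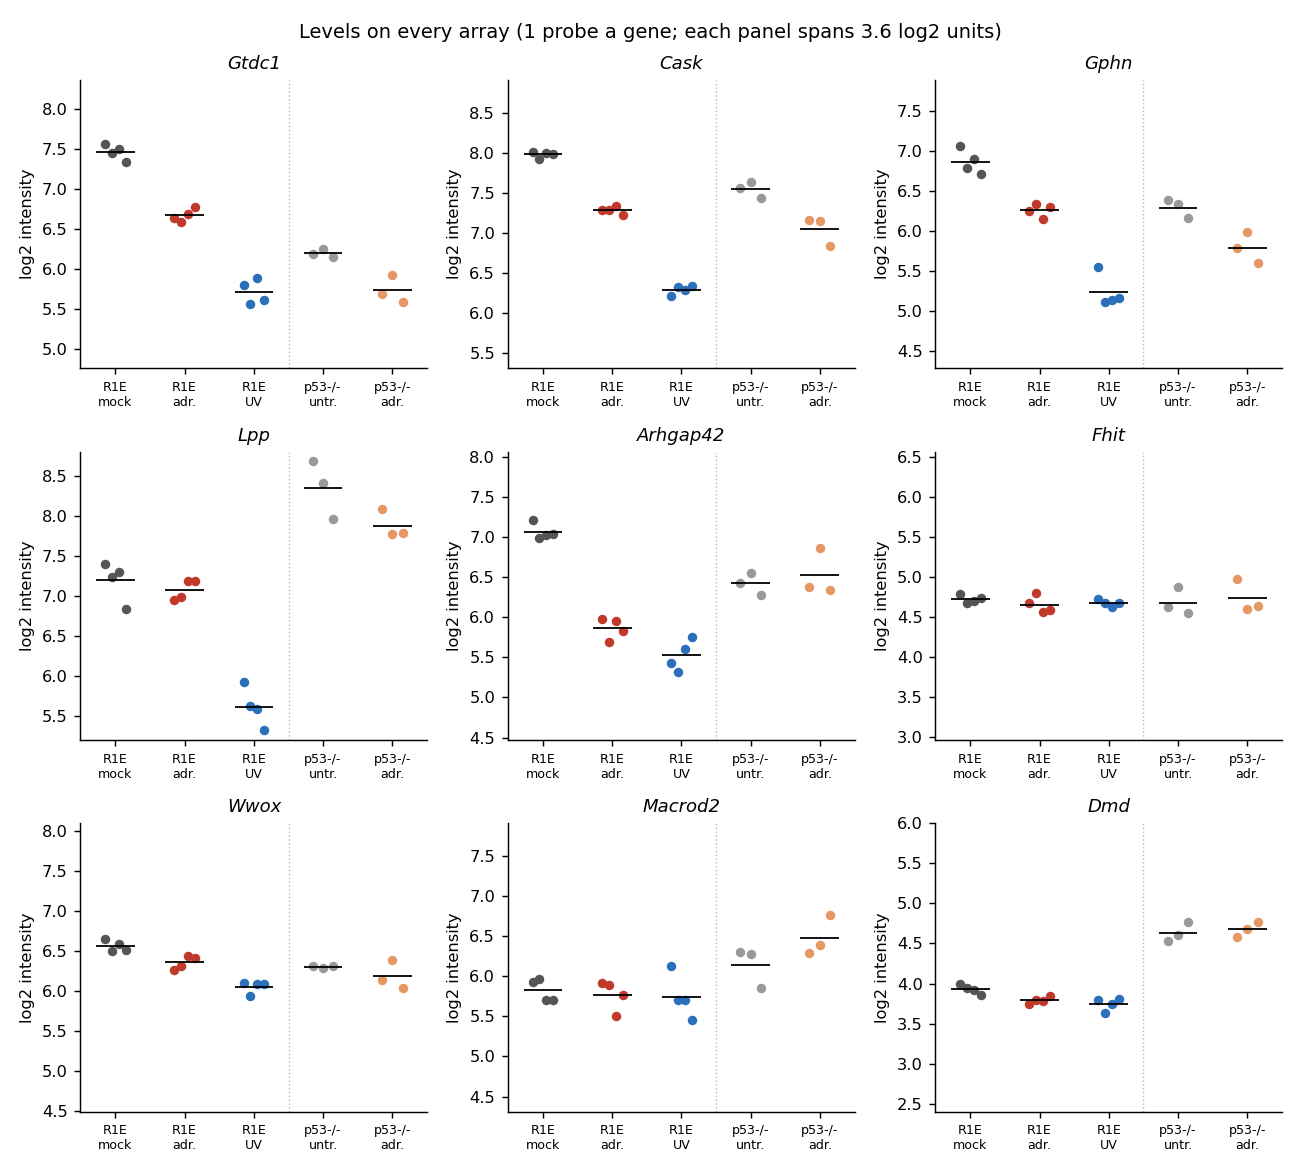
Deposited log2 intensity of the 9 measured genes on every array, 1 probe a gene, with points for arrays and bars for group means; every panel spans the same number of log2 units, and the dotted line separates the R1E arrays from the separately processed p53-/- arrays. Gtdc1, Cask, Gphn and, more narrowly, Wwox show 3 separate R1E bands. Lpp is low after UV, Arhgap42 is low after both treatments, and Fhit lies between 4.55 and 4.98 on all arrays.

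These 5 genes were not the only large falls. In the order of UV falls over all genes they stood at ranks 3, 4, 5, 7 and 8. Lef1, a transcription factor of the Wnt pathway (-1.80, span 114.1 kb), Etv1, an ETS factor (-1.77, 90.4 kb), and Sfmbt2, a Polycomb-associated protein (-1.58, 224.8 kb), fell as far and are not among the genes chosen. Just outside the smallest fall chosen were Klf12 (-1.49, 419.7 kb), Adgrl2 (-1.49, 173.5 kb) and Itga9 (-1.48, 294.3 kb). Lef1, Etv1 and Sfmbt2 changed by -1.75, -2.08 and -1.90 after adriamycin, against -0.12 to -1.20 in the 5 chosen genes.

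The genes chosen by length were tested, since their UV values did not choose them. Wwox and Dmd passed the test after UV, 2 of 4 genes, both lower, and none rose; over all genes 21.2% were called lower and 22.6% higher. Wwox read 6.64, 6.50, 6.58 and 6.51 in mock cells and 6.10, 5.94, 6.08 and 6.08 after UV, with no overlap. It fell 1.42-fold (-0.51 ± 0.06, adjusted p = 1.59e-06, limma).

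Dmd read 4.00, 3.94, 3.92 and 3.86 in mock cells and 3.79, 3.63, 3.75 and 3.81 after UV. The groups did not overlap, but the change was small, 1.14-fold (-0.18 ± 0.05, adjusted p = 0.00867). Fhit read 4.79, 4.68, 4.70 and 4.74 in mock cells and 4.72, 4.68, 4.63 and 4.67 after UV. These ranges overlapped, and the difference of -0.05 had a 95% interval from -0.17 to 0.07 (adjusted p = 0.492).

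The brightest Macrod2 probe read 5.93, 5.97, 5.71 and 5.71 in mock cells and 6.13, 5.70, 5.70 and 5.45 after UV. The UV arrays spread on both sides of the mock arrays, and the difference was -0.08 with an interval from -0.34 to 0.17 (adjusted p = 0.613). The description of these genes as lowered by UV was therefore not borne out by the test for Fhit or for the brightest Macrod2 probe. Of the 4 measured genes chosen by length, Wwox and Dmd had every mock array above every UV array, as had 20.2% of all genes.

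Fhit, Macrod2 and Dmd had a mean below the R1E median of all genes, 6.01, while Wwox and the 5 genes chosen by UV fall lay above it. The deposited table carries no background flag, so whether the dim probes stood above background was not determined. Whether the low level of these probes bears on the size of their changes was not tested.

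Probes of one gene did not move alike. The 3 Lpp probes changed by -1.58, -0.71 and -0.24 after UV, in order of brightness. The second read 7.07, 7.10, 7.16 and 7.06 in mock cells and 6.69, 6.20, 6.29 and 6.36 after UV, and the third, between 3.34 and 3.77 on all R1E arrays, was dim throughout. The 2 Arhgap42 probes changed by -1.54 and -0.71, the second from 5.34, 5.39, 5.50 and 5.04 in mock cells to 4.71, 4.57, 4.56 and 4.57. In all 8 probes of the genes chosen by UV fall, UV arrays lay wholly below mock arrays, as in 20.2% of all genes. This is not independent of the choice, which used the same arrays.

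Macrod2 shows what the choice of probe does. Of its 6 probes, the second and the fourth by brightness were called lower after UV, at -0.44 ± 0.15 (adjusted p = 0.0263) and -0.22 ± 0.07 (adjusted p = 0.0175), and the changes of the others lay between -0.08 and 0.02 and were not called. The second read 5.94, 5.52, 6.10 and 5.38 in mock cells and 5.45, 4.86, 5.39 and 5.46 after UV, so its groups overlapped. Over every probe of the genes chosen by length, 4 of 9 were called lower, against 21.7% of the 21780 probes with 1 symbol. Where in Macrod2 each probe lies was not determined.

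**Figure D2:**
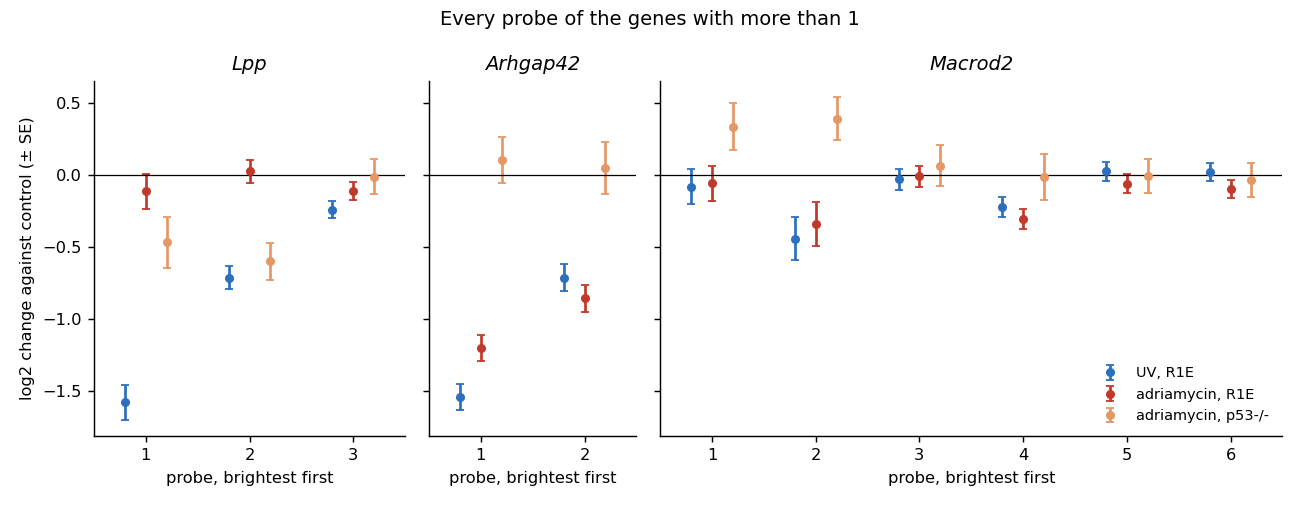
Log2 change against the control for every probe of the 3 genes with more than 1 probe, ordered by brightness, with moderated standard errors. The UV change of Lpp goes from -1.58 at its brightest probe to -0.24 at its dimmest, and both Arhgap42 probes fell after adriamycin in R1E. In R1E the Macrod2 probes lie around 0 except the second and the fourth. In p53-/- cells the first and the second Macrod2 probe lie at 0.33 and 0.39, neither called.

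Adriamycin lowered 6 of the 9 genes in R1E cells: Gtdc1, Cask, Gphn, Arhgap42, Wwox and Dmd. Over all genes 25.6% were called lower and 22.1% higher, and 24.8% had adriamycin arrays wholly below mock arrays, as these 6 genes did. The comparison uses the same mock arrays as the UV fall that chose 5 of the genes, so for those it is not independent of the choice. Arhgap42 fell furthest, 2.30-fold (-1.20 ± 0.09, adjusted p = 6.80e-09), and its second probe fell as well, from 5.34, 5.39, 5.50 and 5.04 to 4.54, 4.21, 4.58 and 4.51 (-0.86 ± 0.09, adjusted p = 9.98e-07).

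Gtdc1 fell 1.73-fold (-0.79 ± 0.07, adjusted p = 1.30e-07), Cask 1.62-fold (-0.70 ± 0.05, adjusted p = 2.57e-09) and Gphn 1.52-fold (-0.60 ± 0.09, adjusted p = 3.77e-05). Lpp, the focal adhesion gene, was the exception among the genes chosen by UV fall. Its brightest probe differed from mock by -0.12, with an interval from -0.37 to 0.14 (adjusted p = 0.484), and its second by 0.03, from -0.14 to 0.20 (adjusted p = 0.834). The second probe read 7.16, 7.13, 7.08 and 7.13 after adriamycin, level with its mock arrays.

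Among the genes chosen by length, Wwox read 6.26, 6.31, 6.44 and 6.41 after adriamycin and fell by 0.20 ± 0.06 on the log2 scale (adjusted p = 0.00682). Dmd read 3.75, 3.80, 3.78 and 3.84 and fell by 0.14 ± 0.05 (adjusted p = 0.0385). The Dmd call was lost without any 1 of mock or adriamycin arrays 1 to 3, with adjusted p from 0.0618 to 0.118. Fhit at -0.07 (interval -0.19 to 0.05) and the brightest Macrod2 probe at -0.06 (-0.32 to 0.20) were not called. With arrays centred on their median Fhit was called lower at -0.20 (adjusted p = 0.00651). Over all 17 probes 8 were called lower, against 25.8% of all probes with 1 symbol, among them the fourth Macrod2 probe at -0.31 ± 0.07 (adjusted p = 0.00166).

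**Figure D3:**
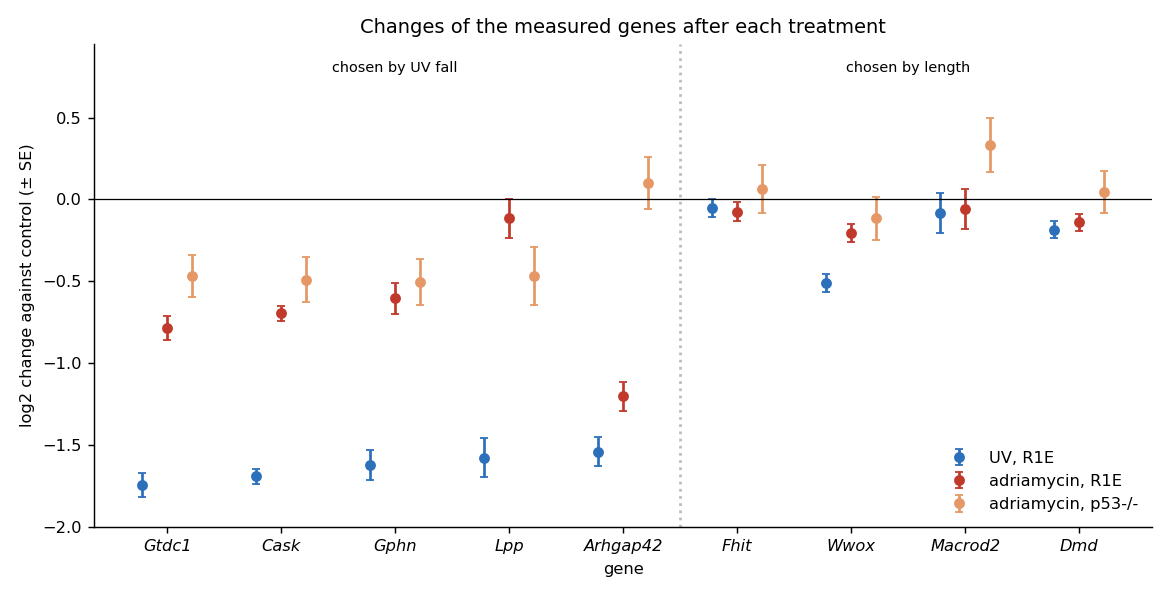
Log2 change against the control of the same set, with moderated standard errors, for the 9 measured genes, 1 probe a gene. UV changes of the genes chosen by UV fall lie between -1.74 and -1.54, their adriamycin changes in R1E between -1.20 and -0.12, and the genes chosen by length lie nearer 0, with Wwox lowest at -0.51 after UV.

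Adriamycin and UV arrays were compared directly within R1E. For the genes chosen by UV fall the gap shares the UV arrays with their choice and is given as a description. At the brightest probe, Lpp stood 1.46 log2 units higher after adriamycin than after UV, Gphn 1.02, Cask 1.00, Gtdc1 0.95 and Arhgap42 0.34. The dimmer Arhgap42 probe went the other way, at -0.14, and at both Arhgap42 probes the adriamycin and UV arrays overlapped. The other Lpp probes differed by 0.74 without overlap and, at the dimmest, by 0.13 with overlap. Of the genes chosen by length, Wwox was higher after adriamycin by 0.31 ± 0.06 (adjusted p = 0.000378) without overlap of its arrays, 1 of 4 genes, against 19.8% of all genes called higher. Fhit, Macrod2 and Dmd differed by -0.02, 0.03 and 0.05 and were not called, and the last 2 of these values changed sign, still uncalled, with arrays centred on their median.

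In p53-/- cells adriamycin changed none of the 9 genes by the adjusted test in limma, 4 had an unadjusted p below 0.05, and over all genes 0.0803% were called lower and 11.6% had an unadjusted p below 0.05. These arrays were not used to choose the genes. The values of 4 genes chosen by UV fall were nonetheless below those of untreated cells. Gtdc1 read 6.19, 6.25 and 6.15 in untreated cells and 5.68, 5.92 and 5.59 after adriamycin, a change of -0.47 ± 0.13 (n = 3 against 3, adjusted p = 0.217).

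Cask read 7.56, 7.63 and 7.43 untreated and 7.16, 7.15 and 6.84 treated (-0.49 ± 0.14, adjusted p = 0.214). Gphn read 6.38, 6.33 and 6.16 untreated and 5.78, 5.99 and 5.60 treated (-0.50 ± 0.14, adjusted p = 0.212). In Gtdc1, Cask and Gphn every treated array lay below every untreated one, which 5.22% of all genes showed. The 95% intervals of the 3 changes ran from -0.81 at their lowest to -0.18 at their highest end.

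The brightest Lpp probe read 8.68, 8.41 and 7.96 untreated and 8.08, 7.77 and 7.78 treated, with overlap (-0.47 ± 0.18, adjusted p = 0.338). Untreated array 3 was the low one, and without it the change was -0.66 and was called (adjusted p = 0.0394). The second Lpp probe read 6.95, 6.86 and 6.65 untreated and 6.15, 6.20 and 6.31 treated, without overlap (-0.60 ± 0.13, adjusted p = 0.167).

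Arhgap42 did not share this direction in p53-/- cells. Its brighter probe read 6.43, 6.56 and 6.28 untreated and 6.38, 6.86 and 6.34 treated (0.10 ± 0.16, adjusted p = 0.852), and the sign turned to -0.07 without adriamycin array 2. Wwox differed by -0.12, Fhit by 0.06, Dmd by 0.05 and the brightest Macrod2 probe by 0.33, none called, and the signs of Fhit and Dmd turned with centred arrays. The second Macrod2 probe read 6.65, 6.67 and 6.69 untreated and 6.82, 6.98 and 7.37 treated, higher on every treated array (0.39 ± 0.15, adjusted p = 0.361).

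Markers of fibroblasts, which serve as feeders for embryonic stem cells, were bright in the p53-/- set. The mean level of the 10 markers ranged from 7.47 to 7.48 on untreated and from 7.18 to 7.53 on adriamycin arrays, and 8 of the 10 lay above the median of all genes, with Col1a1 at 9.93 and Lum at 3.80 in untreated cells. On R1E mock arrays the same mean ranged from 5.16 to 5.28 and 4 of the 10 lay above the median; it ranged from 5.47 to 5.57 after adriamycin and from 5.36 to 5.46 after UV. Of 9 measured markers of differentiated cells, 8 lay above the median in p53-/- cells and 4 in R1E. Their part in the levels of Lpp and the other genes was not tested.

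The difference between the adriamycin effects in R1E and p53-/- cells was tested itself. It cannot be told apart whether genotype, cell line, array set or processing software sets it. The R1E effect uses the same mock arrays as the UV fall. For the genes chosen by that fall the test is therefore not independent of the choice. Arhgap42 was the 1 of 9 genes called, with R1E minus p53-/- at -1.30 ± 0.18 on the log2 scale (adjusted p = 2.40e-05), where 11.4% of all genes were called lower. Its second probe was called too, at -0.90 ± 0.20 (adjusted p = 0.00349).

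For Gtdc1 the difference was -0.32 (interval -0.63 to -0.01, adjusted p = 0.148), for Cask -0.21 (-0.51 to 0.10) and for Gphn -0.10 (-0.45 to 0.25), none called. Lpp lay on the other side. Its second probe, at 0.03 in R1E and -0.60 in p53-/- cells, neither called, differed by 0.63 ± 0.15 (adjusted p = 0.00478), where 10% of all probes with 1 symbol were called higher. Its brightest probe differed by 0.35 ± 0.22 and was not called (adjusted p = 0.287), but was without p53-/- untreated array 3 (0.55, adjusted p = 0.0304).

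Of the probes of genes chosen by length, the second Macrod2 probe was called, at -0.73 ± 0.21 (adjusted p = 0.0138), in contrast to its brightest probe at -0.39 ± 0.21 (adjusted p = 0.197). Over all 17 probes 3 were called lower, against 11.2%, and 1 higher. Fhit, Wwox and Dmd differed by -0.14, -0.09 and -0.18 and were not called.

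UV changes were set beside span over all genes, since the genes were chosen from the long end. Among the 100 largest UV falls 75 genes spanned over 100 kb and 34 over 300 kb, against 2294 and 530 of the 19853 genes with a span. The genes chosen by UV fall are among these 100. The median span of the 100 was 232.9 kb against 17.7 kb over all genes. Among genes with a mean above the R1E median, the median UV change was 0.12 for spans under 10 kb, 0.04 for 10 to 30 kb, -0.17 for 30 to 100 kb, -0.48 for 100 to 300 kb and -0.76 for 300 to 1000 kb. UV falls were called in 12.5% of such genes under 10 kb, 23.3% of 10 to 30 kb and 52.3% of 30 to 100 kb. They were called in 77.9% of the 1001 such genes of 100 to 300 kb and in 82.1% of the 123 of 300 to 1000 kb. These longer classes hold Gtdc1, Cask, Gphn, Lpp and Arhgap42, chosen by this fall. Of all 9968 genes above that median, 3540 were called lower. Without the restriction on level, falls were called in 52.7% of genes of 100 to 300 kb and 35.3% of 300 to 1000 kb.

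Wwox, in the last of these classes, fell by less than the class median. Gtdc1, Cask, Gphn and Lpp, chosen for it, fell by more. After adriamycin the medians of the same classes up to 1000 kb lay between -0.08 and -0.03, so Gtdc1, Cask and Gphn, at -0.79 to -0.60, were well below the class median and Lpp, at -0.12, was near it. Adriamycin levels exceeded UV levels by a median of 0.79 in the class of 300 to 1000 kb, where the gaps of Gtdc1, Cask, Gphn and Lpp ran from 0.95 to 1.46. The adriamycin changes share the mock arrays, and the gaps the UV arrays, with the fall that chose these genes. Their positions against the class medians are thus not independent of the choice.

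Genes over 1000 kb, the class of Fhit, Macrod2 and Dmd, mostly had dim probes, and 4 of 54 lay above the R1E median. All 4 fell after UV: Tenm3, a teneurin (-1.44), Dab1, an adaptor of reelin signalling (-1.21), Pde4d, a cyclic AMP phosphodiesterase (-0.86), and Robo1, a receptor for Slit (-0.85). Of all 9968 genes above that median, 3540 were called lower. The median over all 54 was 0.00, with 7 called lower, so Fhit, Macrod2 and Dmd at -0.05, -0.08 and -0.18 lay slightly below it. Without the restriction on level, the median UV change was -0.21 for 100 to 300 kb and -0.03 for 300 to 1000 kb, of which 56.7% and 25.8% of genes lay above the R1E median. These medians are descriptions over genes, which are not independent replicates.

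**Figure D4:**
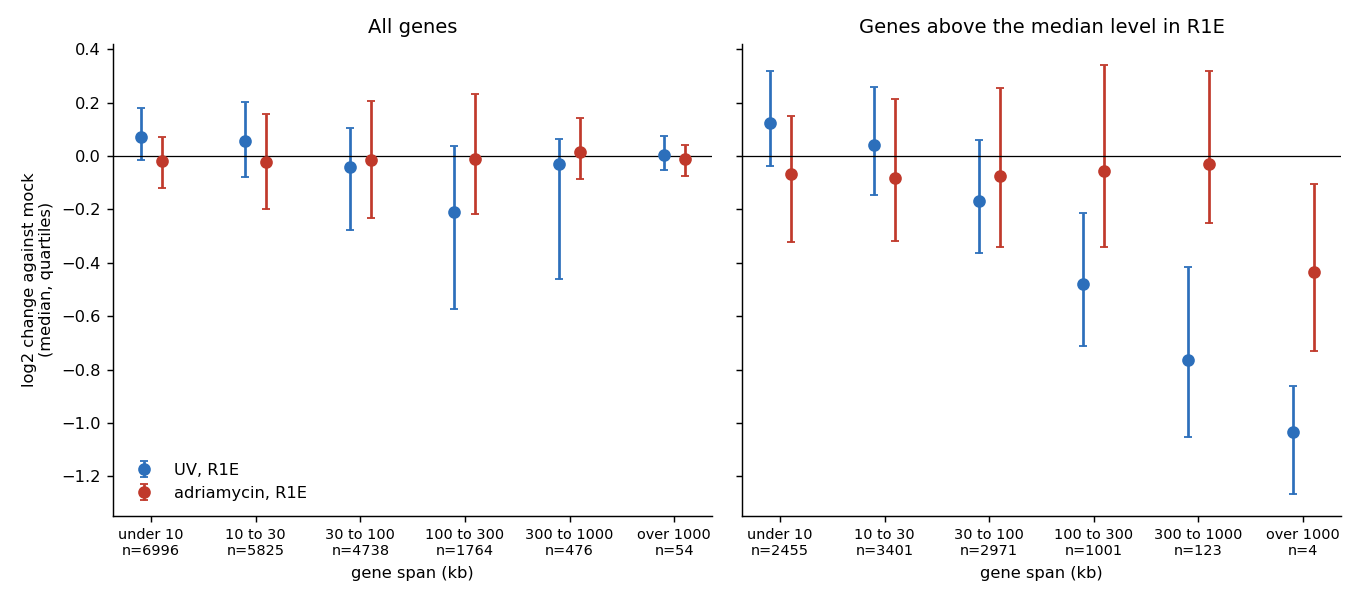
Median log2 change of genes by annotated span after UV and adriamycin in R1E, with bars from the lower to the upper quartile, for all genes and for genes with a mean above the R1E median of all genes. In the brighter genes the UV median goes from 0.12 under 10 kb to -0.76 at 300 to 1000 kb, while the adriamycin medians stay between -0.08 and -0.03 up to 1000 kb; the class over 1000 kb holds 4 genes.

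Other genes known from common fragile sites, or as large, were taken from a list of 24, of which 20 were measured. UV lowered 6 and raised 1, Negr1, a neuronal adhesion molecule, at 0.14, and the list median was 0.01; over all genes 21.2% were called lower and 22.6% higher. The 4 genes above the R1E median all fell: Ptprg, a receptor phosphatase, by 1.29 on the log2 scale, Dab1 by 1.21, Exoc4, a subunit of the exocyst, by 1.07, and Nbea, a trafficking protein, by 0.87. UV lowered 3540 of all 9968 genes above that median. Auts2 at -0.74 and Rora, a nuclear receptor, at -0.23 also fell and lay below that median in level. With arrays centred or quantile normalized, the rise of Negr1 was no longer called.

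After adriamycin 3 of the 20 fell and 4 rose, where 25.6% of all genes fell and 22.1% rose. Auts2 (-0.81) and Dab1 (-0.56) fell, as Gtdc1, Cask and Gphn did, and Cntnap2, a neuronal adhesion molecule of 2241.3 kb, fell by 0.20. Nbea (0.38), Exoc4 (0.30), Ptprg (0.24) and Ptprd (0.17) rose. None of the 20 was called in p53-/- cells, where 3 had an unadjusted p below 0.05 in limma. Over all genes in these cells, 0.0803% were called lower and 11.6% had an unadjusted p below 0.05.

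Relatives and binding partners of the 10 genes were taken from lists of 43 genes, 40 of them measured. UV lowered 16 and raised 6, with a median of -0.05, where 21.2% of all genes were called lower and 22.6% higher. Adriamycin lowered 10 and raised 13, where the shares of all genes were 25.6% and 22.1%, so its count of falls was close to the share of all genes. A split at 100 kb, made after these values were seen, put 11 relatives above it, of which UV lowered 7 and raised 1 (median -0.57), and 29 below it, of which UV lowered 9 and raised 5 (median -0.04). None of the 40 was called in p53-/- cells, where 3 had an unadjusted p below 0.05 in limma, against 0.0803% of all genes called lower and 11.6% with such an unadjusted p.

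Of the 12 guanylate kinase relatives and partners of Cask, 6 fell and 3 rose after UV. Mpp7, which spans 278.9 kb, fell by 1.01 on the log2 scale and Dlg1, the polarity scaffold of 209.9 kb, by 0.88, followed by Pals2 at -0.66 and Pals1 at -0.57. Apba1, a partner of Cask in a synaptic complex, rose by 0.68, Mpp4 by 0.53 and Mpp2 by 0.33. After adriamycin Dlg1 (-0.43) and Pals2 (-0.43) fell as Cask did, whereas Apba1 (1.46), Mpp4 (1.08), Mpp2 (0.86) and Mpp7 (0.56) rose.

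The dystrophin complex showed a similar mixture. UV lowered 4 of 9 measured genes, the dystrobrevins Dtna (-0.68) and Dtnb (-0.42), utrophin (Utrn, -0.60), the autosomal relative of dystrophin with a span of 487.7 kb, and the sarcoglycan Sgce (-0.48). It raised the sarcoglycan Sgcb by 1.28. Adriamycin raised Sgcb (1.52), the syntrophin Sntb2 (0.86), Utrn (0.63) and Drp2 (0.43) and lowered Dtna (-0.54) and dystroglycan (Dag1, -0.27), against -0.14 for Dmd.

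Arhgap26 and Arhgap10, the GTPase-activating relatives of Arhgap42, fell after UV by 0.85 and 0.57 on the log2 scale. After adriamycin they changed by 0.03, not called, and 0.96, a rise, where Arhgap42 fell by 1.20. The LIM-domain relatives of Lpp are short genes and behaved otherwise. UV lowered 1 of 6, Fblim1 (-0.25), whereas adriamycin lowered Fblim1 (-0.73), Ajuba (-0.57), Trip6 (-0.51) and Zyx, the focal adhesion protein zyxin (-0.30), while Lpp itself was not called after adriamycin.

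Genes acting with gephyrin moved little after UV. Mocs3, which shares its cofactor pathway, rose by 0.25, and Mocs1, Mocs2 and the glycine receptor subunit Glrb, at -0.04, -0.01 and 0.17, were not called. Adriamycin raised Glrb by 0.70 and Mocs1 by 0.21. Of the histidine triad relatives of Fhit, UV lowered Hint3 by 0.29 and Aptx, a DNA end processing enzyme, by 0.21 and raised Hint2 by 0.19, and Hint1 at 0.14 was not called. Immp1l, the partner of the unmeasured Immp2l in its peptidase, fell by 0.21 after UV. Macrod1 and Oard1, ADP-ribose hydrolases like Macrod2, were not called after UV at 0.14 and 0.00, and Macrod1 rose by 0.27 after adriamycin.

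**Figure D5:**
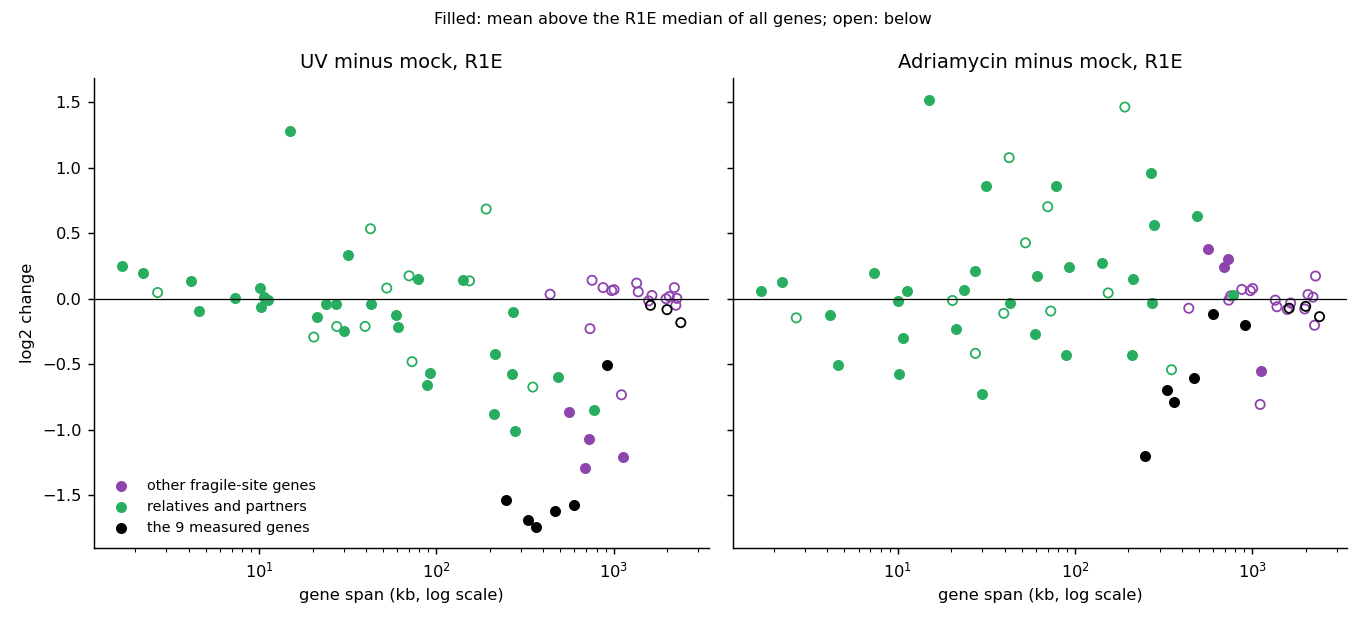
Log2 change after UV and after adriamycin in R1E against annotated span on a log scale, for the 9 measured genes, 20 other fragile-site genes and 40 relatives and partners; filled points have a mean above the R1E median of all genes. Filled points beyond 100 kb lie mostly below 0 after UV and on both sides of 0 after adriamycin, and open points beyond 1000 kb lie near 0 after UV apart from Auts2 at -0.74.

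The genes whose profile was most like the mean profile of Gtdc1, Cask, Gphn, Lpp and Arhgap42 were found by Pearson correlation over the 12 R1E arrays, which share their 3 treatment groups, among 9963 other genes above the median level. The 10 most alike were Dym (r = 0.9962), Cwc27, Dlg1, Fig4, Rps6ka3, Dab1, Smchd1, Smyd3, Mnat1 and Agps (r = 0.9904). They fell by 0.58 to 1.29 on the log2 scale after UV and by 0.21 to 0.56 after adriamycin. Because they were picked for likeness to genes chosen by their UV fall, on the same arrays, these directions were set by the choice. The median span of these 10 genes was 173.9 kb against 23.5 kb over the genes ranked. Of them, 9 spanned over 100 kb, against 1123 of 9963. Smyd3, a methyltransferase of 566.1 kb, changed by -1.29 and -0.40, and Dym, which encodes dymeclin, by -0.97 and -0.37. In p53-/- cells adriamycin changes of the 10 ranged from -0.55 to 0.05.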

How the data were processed

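RNA of 18 arrays was measured as log2 intensities deposited by the authors, 1 value per probe and array. Per the submitters' processing notes, Affymetrix Expression Console 1.1 was used for the R1E arrays and RMA in Partek 6.4 for the p53-/- arrays; the sources used here give neither the algorithm run in Expression Console nor the genome build of the array. Levels were tested only within each separately processed set.

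Complete values were present for 28815 of 28853 probes. Among them 21780 were annotated with 1 gene, 1605 with several and 5430 with none, and 21689 had an Entrez ID found in RefSeq (GRCm38.p6), with 0 symbols changed. For the 998 genes with several probes the probe brightest over all 18 arrays was used, leaving 19935 genes, 99.6% with a span. Other probes of the genes described were read from a fit over all probes with 1 symbol.

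The log2 values as deposited, unfiltered, were fitted with lmFit and eBayes of limma 3.58.1 under R 4.3.3. The 12 R1E arrays shared 1 fit and the 6 p53-/- arrays another, and the difference of adriamycin effects used each set's own moderated variance with Welch-Satterthwaite degrees of freedom. Calls were made below 0.05 after Benjamini-Hochberg adjustment over all genes. Errors are moderated SE. The scripts were tested on simulated data. The named genes were the 10 chosen genes with every probe, up to 4 called genes per list and direction, lists of 5 or fewer in full, genes at the edge of the UV choice, and the 10 most alike profiles. The genes and lists were chosen with earlier results of these data known. Alternatives covered normalization, centring, dim genes, probe choice, the prior, the arrays fitted, a common spread, a replicate block, the features adjusted over and each array left out.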

Additional observations from a re-analysis of the deposited data

Results flagged for a closer look

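In 8 of 51 groups of 4 arrays, 1 array stood apart: its gap to the nearest other, over the range of the group, exceeded Dixon's critical value. Chance gives about 1 in 20 such groups. After UV the ratio was 0.890 for Gphn, where 1 array read 5.55 against 5.11 to 5.16, and 0.899 for Wwox, where 1 array read 5.94 against 6.08 to 6.10. It was 0.939 for the third Lpp probe, with 1 UV array at 3.34 below the rest, and 0.888 for the second Arhgap42 probe, with 1 UV array at 4.71 above the rest. For Macrod2 it was 0.874 for the second probe after UV (1 array at 4.86) and 0.892 after adriamycin (5.19), 0.840 for the third probe after adriamycin (5.23) and 0.965 for the sixth probe in mock cells (3.14).

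The adriamycin effect differed between R1E and p53-/- cells by the test of the difference for 4 probes. Both Arhgap42 probes had a lower effect in R1E, by -1.30 and -0.90 on the log2 scale, as had the second Macrod2 probe, by -0.73. The second Lpp probe had a higher effect in R1E, by 0.63. For the Arhgap42 and Lpp probes the test shares its R1E mock arrays with the UV fall that chose these genes. Which of genotype, cell line, array set and software these values follow cannot be told apart.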

How the results depend on the processing

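Of 877 values recomputed under the alternatives, 838 kept their direction and their side of the threshold or stayed within the spread. Not every alternative could move a value. The UV changes of the genes chosen by UV fall had no test, and leaving out an adriamycin array could not alter them. With dim genes left out, Dmd was no longer among the genes tested and 1 gene chosen by length, not 2, was called lower after UV. UV falls then numbered 4 over 1000 kb and 102 for 300 to 1000 kb, against 7 and 168, because fewer genes were tested; quantile normalization gave 13 over 1000 kb. Adriamycin falls numbered 3 over 1000 kb, 47 for 300 to 1000 kb and 1 among other fragile-site genes with dim genes left out, and 23, 200 and 9 with centred arrays, against 6, 74 and 3. The 1 UV rise among other fragile-site genes became 0 with centring, quantile normalization, dim genes left out, the trend and robust prior, only the groups compared, or the replicate block, and ranged from 0 to 1 with an array left out. Genes described that were called lower in p53-/- cells, and those called higher in the difference of effects, ranged from 0 to 1 with an array left out, the 1 being Lpp without untreated array 3. Over all genes, p53-/- falls ranged from 0 to 307 and rises from 0 to 135 with an array left out, both highest without untreated array 3, against 16 and 3. Centring gave 9640 adriamycin falls in R1E against 5110 and 1 p53-/- rise, and 1182 genes had a higher difference of effects with dim genes left out, against 2065.

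The replicate numbers did not pair the arrays: correlations of deviations within a number ran from -0.14 to 0.19. With the replicate block the Dmd change after adriamycin, -0.14, was not called (adjusted p = 0.0614), nor was it with the trend and robust prior (adjusted p = 0.0584), and p53-/- calls over all genes numbered 5 lower and 0 higher. Fhit was called lower under quantile normalization after UV (-0.15, adjusted p = 0.0340) and after adriamycin (-0.15, adjusted p = 0.0288). With the mean of all probes, the UV change was -0.84 for Lpp and -1.13 for Arhgap42, their gaps of adriamycin over UV were 0.78 and 0.10, and Macrod2 was called lower after adriamycin (-0.15, adjusted p = 0.0389).

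Values that changed sign were uncalled before and after. With an array left out, Macrod2 ranged from -0.2118 to 0.0142 after UV and from -0.1107 to 0.0306 after adriamycin. For adriamycin minus UV the range was -0.0739 to 0.1522 for Macrod2 and -0.0711 to 0.0104 for Fhit, and centring turned Macrod2 to -0.0229 and Dmd to -0.0023, as the mean of probes turned Macrod2 to -0.0231. In p53-/- cells it was -0.0652 to 0.1921 for Arhgap42, -0.0558 to 0.1583 for Fhit and -0.0052 to 0.1138 for Dmd. Centring turned Fhit there to -0.0283 and Dmd to -0.0459, and quantile normalization to -0.0143 and -0.0422. The difference of effects ranged from -0.1948 to 0.003 for Gphn and from -0.161 to 0.0098 for Wwox. Except where a cause is named, it was not tested. Signal over background can limit these values, and the deposited table carries no background flag. The Fhit and Dmd probes had a mean below the median of all genes in both sets, the brightest Macrod2 probe in R1E only.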
